A study of Mus musculus with 10 samples.

Results

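The genes described here are the glucose transporters and glycolytic enzymes of cultured mouse cortical neurons, a list of 10 genes: Slc2a1, Slc2a3, Hk1, Hk2, Pfkm, Pfkp, Aldoa, Pgk1, Pkm and Ldha. Each was read from the brightest probe set that the array annotation gives to that gene and to no other, which was possible for 9 of the 10 among 22180 genes in all. Aldoa has a single probe set, shared in the annotation with Aldoart1, and was therefore not analysed here. RNA came from cortical neurons of embryonic day 14.5 to 15.5 mice, kept for 7 days in culture and then treated for 12 hours. The groups were ATF4-deficient neurons given 5 µM sodium arsenite (2 arrays), ATF4-deficient neurons given vehicle (2 arrays), wildtype neurons given 5 µM sodium arsenite (4 arrays) and wildtype neurons given vehicle (2 arrays). The design text sets both genotypes and both treatments side by side. ATF4 is the transcription factor that carries out much of the integrated stress response, and arsenite is a thiol-reactive arsenic compound. The labels do not name the allele that removes ATF4, the mouse strain, the litters or the sex, and they call the arrays biological replicates without saying whether these were separate embryos or cultures. The p-values therefore measure only the spread between these samples, which may be technical.

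Neurons take up glucose by facilitated diffusion, mostly through GLUT3, encoded by Slc2a3, while GLUT1, encoded by Slc2a1, serves the blood-brain barrier, glia and many dividing cells. Inside the cell, hexokinase traps glucose as glucose 6-phosphate, phosphofructokinase commits it to glycolysis, and phosphoglycerate kinase and pyruvate kinase make ATP in the later steps. Lactate dehydrogenase then regenerates NAD+ by turning pyruvate into lactate. Several of these genes are classical targets of the hypoxia-inducible factor, and a branch at 3-phosphoglycerate leads to serine, whose enzymes are known targets of ATF4.

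Values are log2 expression after robust multiarray averaging (RMA), so a difference of 1 is a fold of 2 on the array scale. Levels of different member genes are not ranked against each other, since probe sets differ in brightness. The dim reference given below is therefore only a rough mark of low signal. Array medians lay between 6.75 and 6.81, and the correlation across genes was 0.982 to 0.994 over all pairs of arrays. Atf4 itself averaged 7.62 ± 0.11 and 7.57 ± 0.12 in ATF4-deficient arsenite and vehicle neurons (SD, n = 2 each), and 9.70 ± 0.21 (SD, n = 4) and 9.32 ± 0.34 (SD, n = 2) in wildtype arsenite and vehicle neurons. The arsenite-responsive gene Hmox1 was higher in all 6 arsenite arrays, at 9.18 or above, than in the 4 vehicle arrays, at 8.05 or below. As a dim reference, the 90th percentile of olfactory and vomeronasal receptor genes was 6.63. All 10 neuron markers were above that level in every group, as were 9 of 11 astrocyte markers in each group (10 of 11 under wildtype vehicle) and 1 or 2 of 8 endothelial markers. So were all 6 oligodendrocyte lineage markers, 6 or 7 of 7 progenitor and cycling cell markers, 5 of 9 microglia markers and 5 or 6 of 8 pericyte and fibroblast markers. In a principal component analysis the array of ATF4-deficient arsenite replicate 2 scored 29.4 on component 1, and the remaining 9 arrays scored -18.2 to 8.70.

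No member passed an adjusted p of 0.05 in any comparison. In limma, 0 of the 9 measured genes were called for arsenite in ATF4-deficient neurons, where 1.15% of all genes were, and 0 for arsenite in wildtype neurons, where 0.482% were. For ATF4 deficiency the count was 0 under arsenite, against 0.343% of all genes, and 0 under vehicle, against 0.433%. The interaction, which is the arsenite response of ATF4-deficient minus that of wildtype neurons, gave 0 calls among the members and 0% of all genes. Averaged over genotypes, arsenite gave 0 calls among the members (3.07% of all genes), and averaged over treatments ATF4 deficiency gave 0 (1.82%). These counts of calls were 0 in each alternative analysis as well. At such shares of all genes, a count of 0 among 9 genes says little. At an unadjusted p under 0.05, arsenite counted 1 member in ATF4-deficient neurons, where 12% of all genes were counted, and 2 in wildtype neurons, where 10.9% were. ATF4 deficiency counted 2 members under arsenite (12.1% of all genes) and 0 under vehicle (10.9%), and the interaction counted 0 (6%). The averages counted 0 for arsenite (16.1%) and 1 for ATF4 deficiency (16.3%). A call missed does not show that levels were equal, so the intervals below give the range of change that the arrays allow.

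**Figure D1:**
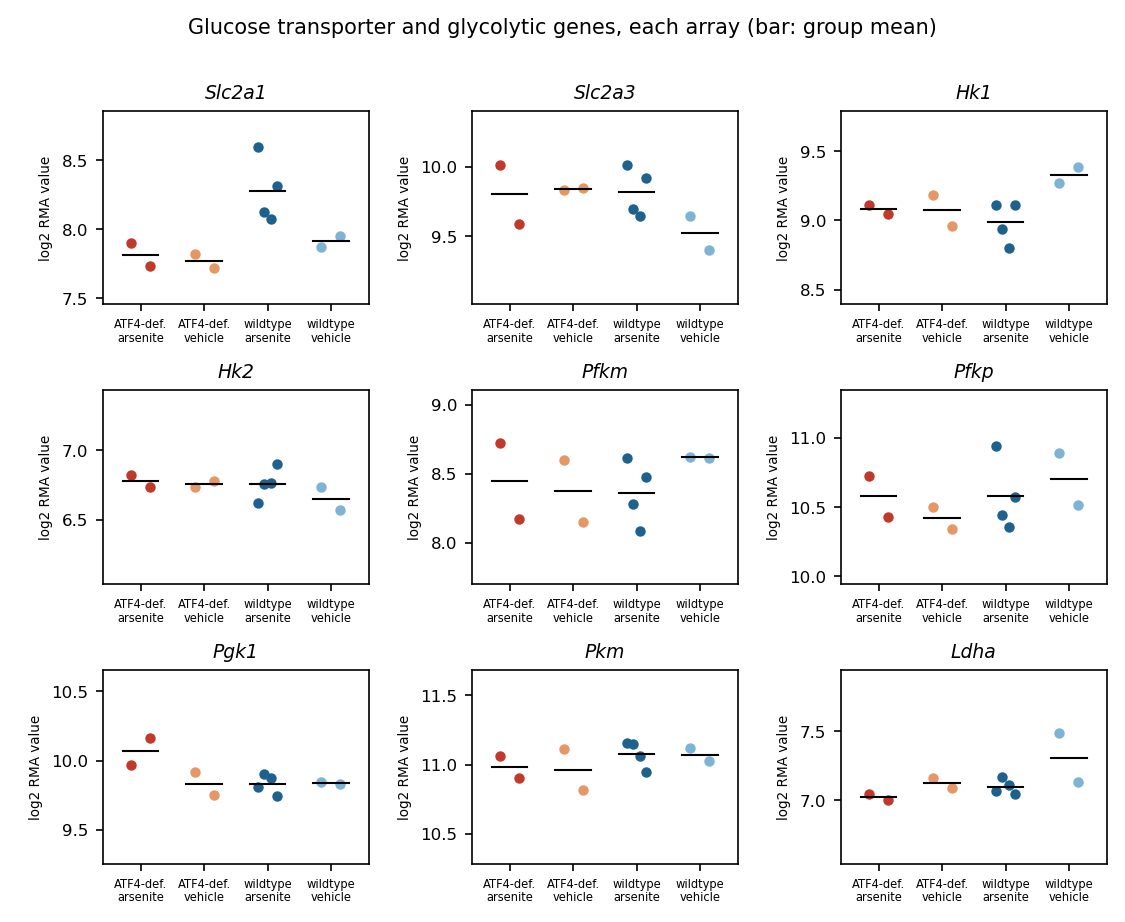
Log2 RMA values of the 9 measured genes on each of the 10 arrays (points), with the group mean as a bar. Each panel spans the same height in log2 units, and Slc2a1 lies higher on the 4 wildtype arsenite arrays than on the other 6.

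Of the glucose transporters, Slc2a1 (probe set 17417844, chromosome 4) showed the widest differences of any member. It read 7.90 and 7.73 on the ATF4-deficient arsenite arrays, 7.82 and 7.72 under ATF4-deficient vehicle, 8.59, 8.12, 8.08 and 8.31 under wildtype arsenite, and 7.87 and 7.95 under wildtype vehicle. The 4 wildtype arsenite arrays were thus above each of the other 6, which lay between 7.72 and 7.95. The difference between ATF4-deficient and wildtype neurons under arsenite was -0.46 log2 (SE 0.13, 95% interval -0.76 to -0.17, adjusted p = 0.216), a fold of 0.726. Arsenite minus vehicle was 0.05 in ATF4-deficient neurons (interval -0.29 to 0.39) and 0.36 in wildtype neurons (interval 0.07 to 0.66, adjusted p = 0.322), with an interaction of -0.32 (interval -0.77 to 0.13, adjusted p = 0.878). Under vehicle the ATF4-deficient difference was -0.14 (interval -0.48 to 0.20). Averaged over treatments, the genotype difference of -0.30 (SE 0.10, adjusted p = 0.174) had the smallest unadjusted p of a member in that comparison, and it was not called.

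A second Slc2a1 probe set was dimmer, and its means of 5.760, 5.932, 5.821 and 6.074 in ATF4-deficient arsenite, ATF4-deficient vehicle, wildtype arsenite and wildtype vehicle arrays were all under the dim reference. On it the wildtype arsenite arrays were not the highest. Averaging both probe sets gave differences of -0.26 for ATF4 deficiency under arsenite and 0.06 for arsenite in wildtype neurons. Slc2a1 is also a gene of endothelial cells, whose 8 markers averaged 6.04 to 6.06 and 6.06 to 6.08 on ATF4-deficient arsenite and vehicle arrays, against 5.89 to 6.05 and 5.96 to 5.99 on wildtype arsenite and vehicle arrays. These means lie under the dim reference. The part of endothelial cells in the Slc2a1 values was not tested, nor that of astrocytes, whose markers are given below.

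Slc2a3 (probe set 17470597, chromosome 6), the main glucose transporter of neurons, had another order of groups. Its values were 10.02 and 9.59 under ATF4-deficient arsenite, 9.83 and 9.85 under ATF4-deficient vehicle, 10.01, 9.69, 9.65 and 9.92 under wildtype arsenite, and 9.64 and 9.40 under wildtype vehicle. Wildtype vehicle arrays were the lowest group, although ATF4-deficient arsenite replicate 2 fell among them. Arsenite minus vehicle was -0.04 in ATF4-deficient neurons (interval -0.39 to 0.32) and 0.30 in wildtype neurons (SE 0.14, interval -0.01 to 0.61, adjusted p = 0.476), and the interaction was -0.34 (adjusted p = 0.878). The ATF4-deficient difference was -0.015 under arsenite (interval -0.32 to 0.29) and 0.32 under vehicle (SE 0.16, interval -0.04 to 0.68, adjusted p = 0.518). So both transporters had estimates of about 0.3 for arsenite in wildtype neurons and near 0 in ATF4-deficient neurons, and neither was called.

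The hexokinases followed. Hk1 (probe set 17241318, chromosome 10), the brain's main hexokinase, which binds mitochondria, read 9.11 and 9.05 under ATF4-deficient arsenite, 9.19 and 8.96 under ATF4-deficient vehicle, 9.11, 8.94, 8.80 and 9.11 under wildtype arsenite, and 9.27 and 9.38 under wildtype vehicle. Both wildtype vehicle arrays were above all 8 others. Arsenite minus vehicle was 0.006 in ATF4-deficient neurons (interval -0.27 to 0.29) and -0.34 in wildtype neurons (SE 0.11, interval -0.58 to -0.09, adjusted p = 0.262) and a fold of 0.792 in wildtype neurons. The genotype difference was 0.09 under arsenite (interval -0.15 to 0.33) and -0.25 under vehicle (interval -0.53 to 0.03, adjusted p = 0.516), and the interaction was 0.34 (SE 0.17, adjusted p = 0.839).

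Hk2 (probe set 17468018, chromosome 6), the inducible hexokinase of muscle and of many tumours, lay close to the dim reference in every group, with means of 6.78 ± 0.06 (SD, n = 2), 6.76 ± 0.03 (SD, n = 2), 6.76 ± 0.11 (SD, n = 4) and 6.65 ± 0.12 (SD, n = 2) in ATF4-deficient arsenite, ATF4-deficient vehicle, wildtype arsenite and wildtype vehicle arrays. Its whole range over the 10 arrays was 6.57 to 6.90. The 4 estimates ran from 0.02 to 0.11, and the widest interval reached 0.35, a fold of 1.27. Signal so near to background limits how much of a change this probe set can show.

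Phosphofructokinase is the step at which glucose is committed to glycolysis, and Pfkm and Pfkp encode its muscle-type and platelet-type subunits, both of which brain uses. Pfkm (probe set 17314577, chromosome 15) read 8.72 and 8.17 under ATF4-deficient arsenite, 8.60 and 8.15 under ATF4-deficient vehicle, 8.61, 8.28, 8.08 and 8.47 under wildtype arsenite, and 8.62 and 8.61 under wildtype vehicle. It had the widest spread within groups of the 9 genes, a pooled SD of 0.262, so its intervals were also the widest: -0.39 to 0.54 for arsenite in ATF4-deficient neurons and -0.65 to 0.15 in wildtype neurons. Its genotype difference was 0.08 under arsenite and -0.25 under vehicle (adjusted p = 0.747).

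Pfkp (probe set 17290324, chromosome 13) read 10.73 and 10.43 under ATF4-deficient arsenite, 10.50 and 10.35 under ATF4-deficient vehicle, 10.94, 10.44, 10.36 and 10.58 under wildtype arsenite, and 10.89 and 10.52 under wildtype vehicle. Groups overlapped except under vehicle, where both ATF4-deficient arrays were below both wildtype arrays by a narrow margin. That difference was -0.28 log2 (SE 0.19, interval -0.70 to 0.14, adjusted p = 0.665). Under arsenite the genotypes differed by -0.003 (interval -0.37 to 0.36). The arsenite estimate was 0.15 in ATF4-deficient neurons and -0.12 in wildtype neurons (adjusted p = 0.818 and 0.867).

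In the later steps, Pgk1 (probe set 17537088, chromosome X) encodes the phosphoglycerate kinase that makes the first ATP of the pathway. It read 9.97 and 10.17 under ATF4-deficient arsenite, 9.92 and 9.75 under ATF4-deficient vehicle, 9.81, 9.90, 9.87 and 9.75 under wildtype arsenite, and 9.85 and 9.83 under wildtype vehicle. Both ATF4-deficient arsenite arrays were above all 8 others. Arsenite minus vehicle was 0.24 in ATF4-deficient neurons (SE 0.11, interval 0.002 to 0.47, adjusted p = 0.412) and -0.004 in wildtype neurons (interval -0.21 to 0.20). The ATF4-deficient difference was 0.24 under arsenite (SE 0.09, interval 0.03 to 0.44, adjusted p = 0.338) and -0.005 under vehicle (interval -0.24 to 0.23). These 2 comparisons share the ATF4-deficient arsenite arrays, the higher of which is replicate 2, whose component 1 score lay apart. Without that replicate both differences were 0.14, against 0.24.

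Pkm (probe set 17518007, chromosome 9) encodes the pyruvate kinase of brain. Its means were 10.98 ± 0.12 (SD, n = 2), 10.96 ± 0.21 (SD, n = 2), 11.08 ± 0.10 (SD, n = 4) and 11.07 ± 0.07 (SD, n = 2) in ATF4-deficient arsenite, ATF4-deficient vehicle, wildtype arsenite and wildtype vehicle arrays, and every pair of groups overlapped. Arsenite minus vehicle was 0.02 in ATF4-deficient neurons (interval -0.25 to 0.29) and 0.007 in wildtype neurons (interval -0.23 to 0.24), so a change beyond a fold of 1.22 or below 0.839 lay outside both intervals. The probe set reads the gene as a whole and does not separate the PKM1 and PKM2 splice forms.

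Ldha (probe set 17478225, chromosome 7) encodes the A subunit of lactate dehydrogenase. It read 7.04 and 7.00 under ATF4-deficient arsenite, 7.16 and 7.09 under ATF4-deficient vehicle, 7.07, 7.17, 7.11 and 7.04 under wildtype arsenite, and 7.49 and 7.13 under wildtype vehicle. Except for wildtype vehicle replicate 1, all arrays lay between 7.00 and 7.17. The 4 differences were negative: -0.10 for arsenite in ATF4-deficient neurons, -0.21 in wildtype neurons (SE 0.10, adjusted p = 0.491), -0.08 for ATF4 deficiency under arsenite and -0.18 under vehicle. Without wildtype vehicle replicate 1 the wildtype arsenite difference was -0.03 and the vehicle genotype difference was -0.007.

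**Figure D2:**
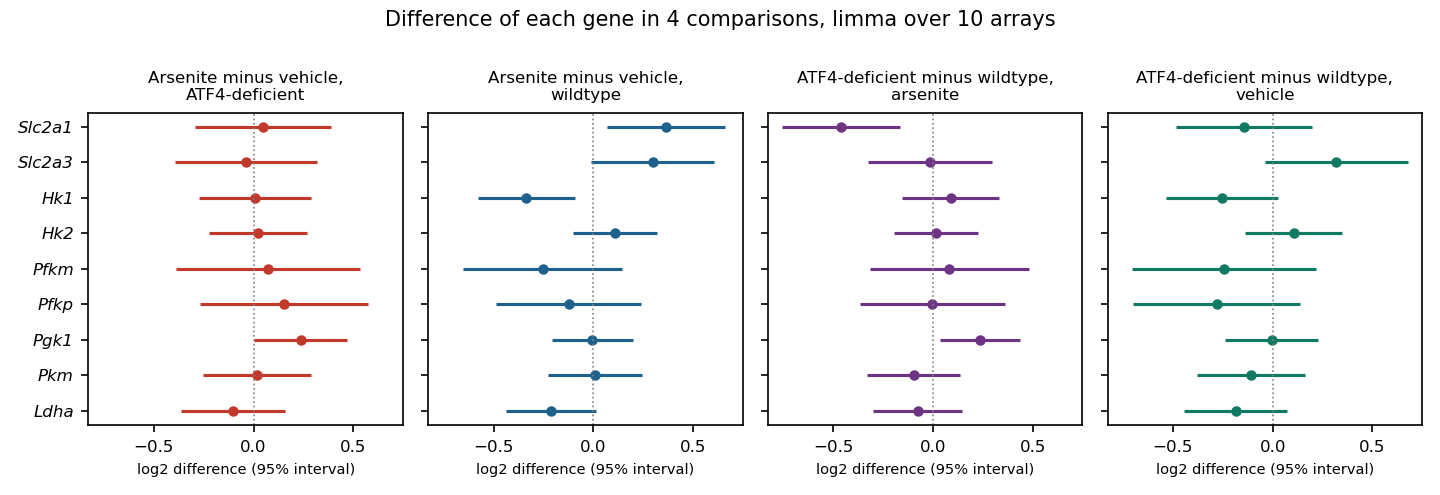
Log2 difference of each gene (point) with its 95% interval (line) in 4 comparisons, from limma over all 10 arrays. Most intervals cross 0, and those that do not (Slc2a1 in wildtype arsenite and between genotypes under arsenite, Hk1 in wildtype arsenite, Pgk1 in both comparisons of ATF4-deficient arsenite neurons) are unadjusted for the 22180 genes tested.

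Promoter windows are shown for the 3 genes whose unadjusted p was under 0.05 in a comparison of 2 groups, Slc2a1, Hk1 and Pgk1, and for Ldha, whose window held the most hypoxia-type letters. They run from 250 bases before to 50 after an annotated RefSeq start (GRCm38.p6), 5′ to 3′ on the gene's strand. The capitals mark ACGTG on either strand, the core letters of the sites that the hypoxia-inducible factor binds. The window at the first Hk1 start holds none and so has no capitals. In CACGTG, the palindrome that MYC-type factors also bind, the matches of both strands overlap.
Slc2a1 (chr4:119108495-119108794, plus strand): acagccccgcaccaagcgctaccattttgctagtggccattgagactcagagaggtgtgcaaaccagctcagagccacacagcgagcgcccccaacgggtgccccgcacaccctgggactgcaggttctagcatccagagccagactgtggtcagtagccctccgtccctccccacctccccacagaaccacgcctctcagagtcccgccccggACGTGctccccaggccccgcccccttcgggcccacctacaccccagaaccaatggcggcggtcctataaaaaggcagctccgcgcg
Hk1, first start (chr10:62379859-62380158, minus strand): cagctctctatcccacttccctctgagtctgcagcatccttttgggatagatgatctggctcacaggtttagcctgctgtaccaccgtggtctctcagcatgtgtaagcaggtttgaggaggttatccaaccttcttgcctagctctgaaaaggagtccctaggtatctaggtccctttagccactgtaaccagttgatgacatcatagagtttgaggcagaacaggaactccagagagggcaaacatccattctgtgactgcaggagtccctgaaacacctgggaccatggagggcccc
Hk1, second start (chr10:62340372-62340671, minus strand): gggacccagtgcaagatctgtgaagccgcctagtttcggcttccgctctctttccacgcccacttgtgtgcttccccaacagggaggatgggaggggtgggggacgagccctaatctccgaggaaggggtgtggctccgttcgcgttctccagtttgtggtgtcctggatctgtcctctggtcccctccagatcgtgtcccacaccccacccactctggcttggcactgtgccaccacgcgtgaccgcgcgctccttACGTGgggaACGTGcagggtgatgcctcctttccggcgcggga
Pgk1 (chrX:106186850-106187149, plus strand): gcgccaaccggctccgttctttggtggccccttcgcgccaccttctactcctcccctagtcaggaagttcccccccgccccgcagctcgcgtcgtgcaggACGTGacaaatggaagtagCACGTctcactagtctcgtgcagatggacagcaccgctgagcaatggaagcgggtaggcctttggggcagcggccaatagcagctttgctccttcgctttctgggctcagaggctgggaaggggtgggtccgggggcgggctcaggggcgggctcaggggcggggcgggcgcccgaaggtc
Ldha, first start (chr7:46845554-46845853, plus strand): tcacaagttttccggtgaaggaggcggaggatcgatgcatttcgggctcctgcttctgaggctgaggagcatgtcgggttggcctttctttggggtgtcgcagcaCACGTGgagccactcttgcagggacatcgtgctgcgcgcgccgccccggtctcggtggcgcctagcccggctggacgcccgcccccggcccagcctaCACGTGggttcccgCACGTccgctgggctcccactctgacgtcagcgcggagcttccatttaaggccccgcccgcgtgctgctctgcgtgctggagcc

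RefSeq gave 14 windows for 8 of the measured members, and none was matched for Slc2a3. At least 1 ACGTG lay in a window of 7 of the 8, Pfkp being the exception, and in 21.8% of 27025 genes of the table. The letters were not particular to the members. Of the called genes of neighbouring lists described below, Psat1, Psph, Vegfa, Egln3, Aldoc, Arrdc4 and Slc16a1 also had a match. Txnip, Slc2a2 and Kdm3a had none. A gene with more windows has more room for a match. Counted by window, 8 of the 14 held it, against 19.6% of all 32851 windows. Ldha's first window held 5 matches, counting both strands, and those of Pgk1, Hk1 at its second start and Slc2a1 held 2, 2 and 1. The letters TGATGNAA, a form of the composite site that ATF4 binds with C/EBP partners, were searched on both strands as well. They lay in a window of 0 of the 8 genes and in that of 4.51% of all genes in the table. At so low a share, a count of 0 among 8 genes says little. The windows of Psat1 and Psph, genes of the serine branch described below, did not hold them either. Letters in a window are a description of the sequence and show no binding.

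The members did not move as 1 block. The median difference over the 9 was 0.02 for arsenite in ATF4-deficient neurons and -0.004 in wildtype neurons, against -0.01 and -0.02 over all genes. For ATF4 deficiency it was -0.003 under arsenite and -0.14 under vehicle, against 0.02 and 0.004 over all genes. Under vehicle 7 of the 9 estimates were negative and 2 positive, and 51.1% of all genes had a positive one. Among groups that did not overlap, 4 members (Slc2a1, Hk1, Pfkm and Pfkp) were below wildtype under vehicle, where 21.4% of all genes were, and Slc2a3 was above, as were 21.2% of all genes. For arsenite in wildtype neurons, 2 were above vehicle (both transporters, against 7.86% of genes) and 2 below (Hk1 and Pfkm, against 12.7%). Some of these separations were narrow. In wildtype neurons the nearest arsenite and vehicle arrays read 9.647 and 9.643 for Slc2a3, and 8.611 and 8.614 for Pfkm. Under vehicle the nearest ATF4-deficient and wildtype arrays read 8.596 and 8.614 for Pfkm, and 10.501 and 10.516 for Pfkp. In ATF4-deficient neurons Pgk1 was above vehicle (18.1% of genes) and Ldha below (20.7%). Between the genotypes under arsenite Pgk1 was above (10.6% of genes) and Slc2a1 and Ldha below (7.95%).

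Across the 10 arrays the genes were loosely related. Of 36 pairs, 18 correlated positively, with a median r of 0.04 and a range of -0.45 to 0.80, as a description over arrays that share groups and processing. The highest values joined Hk1 with Pfkm (r = 0.80) and Pfkm with Pfkp (r = 0.76), and the lowest was between Hk1 and Hk2. The mean of the 9 genes was 9.04 and 8.86 under ATF4-deficient arsenite, 8.98 and 8.83 under ATF4-deficient vehicle, 9.10, 8.94, 8.86 and 9.004 under wildtype arsenite, and 9.05 and 8.93 under wildtype vehicle. All 4 groups overlapped in that mean. In each group that mean was higher on replicate 1 than on replicate 2. The 5 genes outside the list whose values followed the mean most closely over the 10 arrays were Ap4m1 (r = 0.975), Zmat5 (0.956), Rsad1 (0.955), Psmb10 (0.953) and Svop (0.942). They were picked as the highest r of 22171 genes over only 10 arrays, and shared regulation was not tested.

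**Figure D3:**
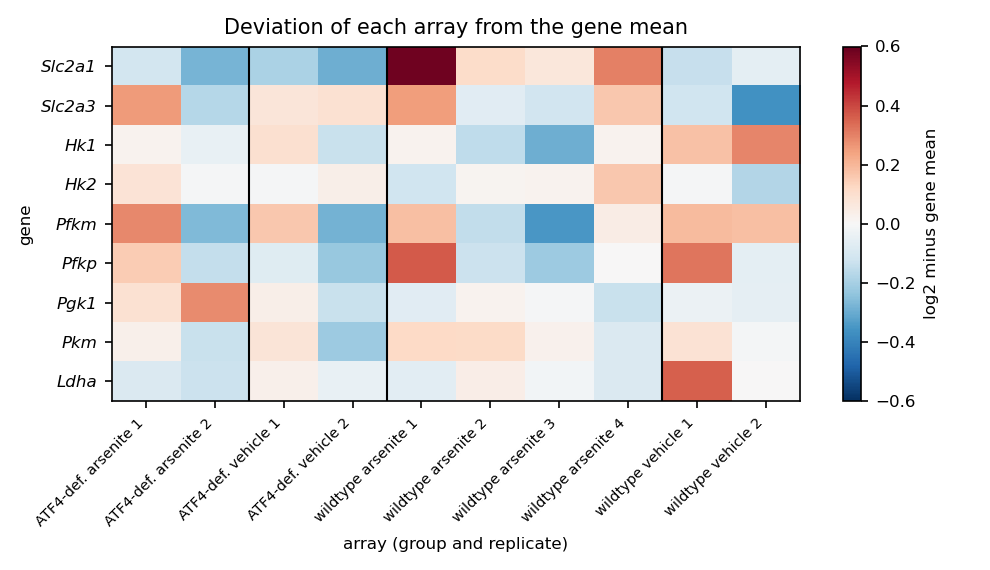
Deviation of each of the 10 arrays (columns, by group and replicate) from each gene's mean (rows), in log2 units. The pairs of rows most alike across arrays are Hk1 with Pfkm and Pfkm with Pfkp. Slc2a1 is highest on the wildtype arsenite arrays and Pgk1 on the ATF4-deficient arsenite arrays.

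Markers of other cells differed between the cultures. The mean of 11 astrocyte markers was 7.27 to 7.57 and 7.35 to 7.65 on ATF4-deficient arsenite and vehicle arrays, against 7.65 to 8.13 and 8.17 to 8.37 on wildtype arsenite and vehicle arrays, with a median difference of -0.69 for ATF4 deficiency under vehicle. Of these markers, 1 was called lower between genotypes under vehicle and 1 under arsenite, and 4 were lower averaged over treatments. The mean of 6 oligodendrocyte lineage markers ran the same way, at 7.12 to 7.35 and 7.46 to 7.50 on ATF4-deficient arsenite and vehicle arrays, against 7.52 to 7.79 and 7.85 to 8.09 on wildtype arsenite and vehicle arrays. Of these 6, 1 was lower between genotypes under arsenite, 1 fell with arsenite in wildtype neurons and 3 were lower averaged over treatments. In that average 2 of 7 progenitor and cycling cell markers and 1 of 7 inhibitory neuron markers were lower too. Higher in it were 1 of 5 excitatory neuron markers and 1 of 8 pericyte and fibroblast markers. Of 10 neuron markers, 1 was higher and 1 lower, where 1.82% of all genes were called in either direction. Of the 8 pericyte and fibroblast markers, 1 was also higher between genotypes under vehicle, and 1 fell with arsenite in ATF4-deficient neurons. Wildtype vehicle arrays, the highest in the astrocyte and oligodendrocyte lineage markers, were also the highest group for Hk1, Pfkm, Pfkp and Ldha, and the part of other cells in those values was not tested. In RNA from a mixed culture, fewer cells of a type and less RNA per cell cannot be told apart.

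The glycolytic list extends to 13 other measured enzymes of the pathway. None was called in a comparison of 2 groups, and their median was -0.05 and -0.14 for arsenite in ATF4-deficient and wildtype neurons. Averaged over treatments, ATF4 deficiency lowered 1 of the 13, Aldoc, the aldolase that astrocytes make, by 0.95 log2 (SE 0.17, adjusted p = 0.0215). The 2 parts of that average were unequal, at -1.33 under vehicle (adjusted p = 0.057) and -0.56 under arsenite (adjusted p = 0.345). The interaction was 0.77 (adjusted p = 0.828), and arsenite minus vehicle in wildtype neurons was -0.665 (adjusted p = 0.272). Aldoc read 8.30 and 7.72 under ATF4-deficient arsenite, 8.23 and 7.58 under ATF4-deficient vehicle, 8.70, 8.42, 8.26 and 8.92 under wildtype arsenite, and 9.12 and 9.36 under wildtype vehicle. Both ATF4-deficient groups were lower in Aldoc and also in the astrocyte markers, whose part in this difference was not tested. The call was lost without either wildtype vehicle array and without replicate 2 of either ATF4-deficient group (adjusted p = 0.056 to 0.12).

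Of 11 measured regulators of glycolytic flux, 2 rose with arsenite in ATF4-deficient neurons, 0 fell and 9 did not pass, and in wildtype neurons all 11 did not pass. The 2 were the related arrestin genes Txnip and Arrdc4, whose proteins restrain glucose uptake. Txnip read 11.09 and 10.35 under ATF4-deficient arsenite and 9.10 and 9.24 under ATF4-deficient vehicle, a difference of 1.55 (SE 0.30, adjusted p = 0.0351), and 10.99, 10.24, 10.24 and 10.47 under wildtype arsenite against 9.90 and 9.21 under wildtype vehicle, a difference of 0.93 (adjusted p = 0.173). Arrdc4 read 9.76 and 9.65 under ATF4-deficient arsenite and 8.79 and 8.94 under ATF4-deficient vehicle, 0.84 higher (SE 0.13, adjusted p = 0.0137), and was 0.42 higher in wildtype neurons (adjusted p = 0.136). Arsenite arrays lay above vehicle arrays for both genes in each genotype, and the interaction was not called (adjusted p = 0.878 and 0.826). Averaged over genotypes both rose (1.24 and 0.63 log2, adjusted p = 0.00792 and 0.00345), and those calls held without each array in turn. The call for ATF4-deficient neurons alone was lost without any 1 of their 4 arrays, for Arrdc4 at an adjusted p of 0.0597 to 0.0977, and for Txnip (0.0511 to 0.202) also without wildtype arsenite replicate 2, 3 or 4. Fitted to those 4 arrays alone, neither gene was called (0.217 for Arrdc4 and 0.255 for Txnip), and 0 of all genes were.

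Of 15 other hexose and monocarboxylate transporters, none was called in a comparison of 2 groups. Averaged over genotypes, arsenite raised 1, Slc16a1, the lactate and pyruvate carrier MCT1, by 0.31 log2 (SE 0.07, adjusted p = 0.0362), with similar estimates in ATF4-deficient (0.29) and wildtype (0.32) neurons. That call was lost without each array but wildtype arsenite replicate 4 (adjusted p = 0.0537 to 0.135). Averaged over treatments, Slc2a2, the glucose transporter of liver and pancreatic islets, was 0.40 higher in ATF4-deficient neurons (SE 0.07, adjusted p = 0.024), at means of 7.18 ± 0.19 and 6.88 ± 0.04 in ATF4-deficient arsenite and vehicle arrays (SD, n = 2 each), against 6.69 ± 0.07 (SD, n = 4) and 6.58 ± 0.10 (SD, n = 2) in wildtype ones. The wildtype vehicle mean was under the dim reference. The call was lost without either vehicle array of each genotype and without ATF4-deficient arsenite replicate 1 (adjusted p = 0.0627 to 0.1).

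The serine branch leaves glycolysis at the product of Pgk1 and was measured through 3 genes. In wildtype neurons arsenite raised 1 of them, Psph, the last enzyme of serine synthesis, by 0.81 log2 (SE 0.13, adjusted p = 0.0338), and in ATF4-deficient neurons 0 of 3 passed (0.11 for Psph). Under arsenite ATF4 deficiency lowered 2 of the 3, Psat1, the aminotransferase of the branch (-1.65, SE 0.24, adjusted p = 0.018), and Psph (-0.89, SE 0.13, adjusted p = 0.018). Psat1 read 8.07 and 7.90 under ATF4-deficient arsenite, 8.11 and 7.44 under ATF4-deficient vehicle, 9.25, 9.97, 9.75 and 9.57 under wildtype arsenite, and 7.99 and 8.73 under wildtype vehicle. The 4 wildtype arsenite arrays were above all others for both genes. Both genotype calls were lost without wildtype arsenite replicate 3 or either ATF4-deficient arsenite array (adjusted p = 0.0618 to 0.175), and the Psph rise was kept only without wildtype arsenite replicate 1 or 4 (0.0519 to 0.299 without the others). Averaged over treatments both were lower in ATF4-deficient neurons (-1.12 and -0.54, adjusted p = 0.0144 and 0.0232), and averaged over genotypes Psph was higher under arsenite (0.46, adjusted p = 0.0354). The averaged Psat1 call was lost without replicate 2 of wildtype vehicle, ATF4-deficient vehicle or ATF4-deficient arsenite (0.0604 to 0.0843). That of Psph was lost without any vehicle or ATF4-deficient arsenite array (0.065 to 0.124), and its averaged arsenite call without those or wildtype arsenite replicate 3 (0.061 to 0.139). The third gene of the branch did not pass in any comparison. Slc2a1 also stood highest on the wildtype arsenite arrays, with a genotype difference under arsenite of -0.46 that did not pass. Its second, dimmer probe set did not show that order.

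Hypoxia-induced genes outside glycolysis gave mixed results. Of 14 measured, 0 were called for arsenite in ATF4-deficient neurons, 1 fell in wildtype neurons, 2 were lower in ATF4-deficient neurons under arsenite and 1 under vehicle. Vegfa, the endothelial growth factor gene, read 8.13 and 8.42 under ATF4-deficient arsenite, 7.99 and 7.98 under ATF4-deficient vehicle, 8.89, 9.43, 9.19 and 9.08 under wildtype arsenite, and 8.30 and 8.70 under wildtype vehicle. Its genotype difference under arsenite was -0.87 (SE 0.15, adjusted p = 0.0478), and it was lost without each array but wildtype arsenite replicate 1 (0.0513 to 0.154). Averaged over treatments it was -0.69 (adjusted p = 0.017), a call lost without wildtype vehicle replicate 2, ATF4-deficient vehicle replicate 2 or ATF4-deficient arsenite replicate 1 (0.0549 to 0.094). Egln3, an oxygen-sensing prolyl hydroxylase, was lower in 3 comparisons: by arsenite in wildtype neurons (-0.77), and by ATF4 deficiency under arsenite (-0.72) and under vehicle (-0.98; adjusted p = 0.0286, 0.0354 and 0.0218). Its means under ATF4 deficiency, 5.38 and 5.89, and under wildtype arsenite, 6.10, were below the dim reference. These 3 calls were lost without each of the wildtype arrays, all 10 arrays and each of the 4 vehicle arrays in that order (adjusted p = 0.0501 to 0.257), while its averages over treatments (-0.85) and over genotypes (-0.64) were called without each array in turn. Egln3 was not tested where dim genes were left out, and differences so near to background may not be to scale. Kdm3a, a hypoxia-induced histone demethylase, rose by 0.42 averaged over genotypes (adjusted p = 0.0412), a call lost without 8 of the 10 arrays (0.0532 to 0.151) and kept without wildtype arsenite replicate 1 or 3.

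**Figure D4:**
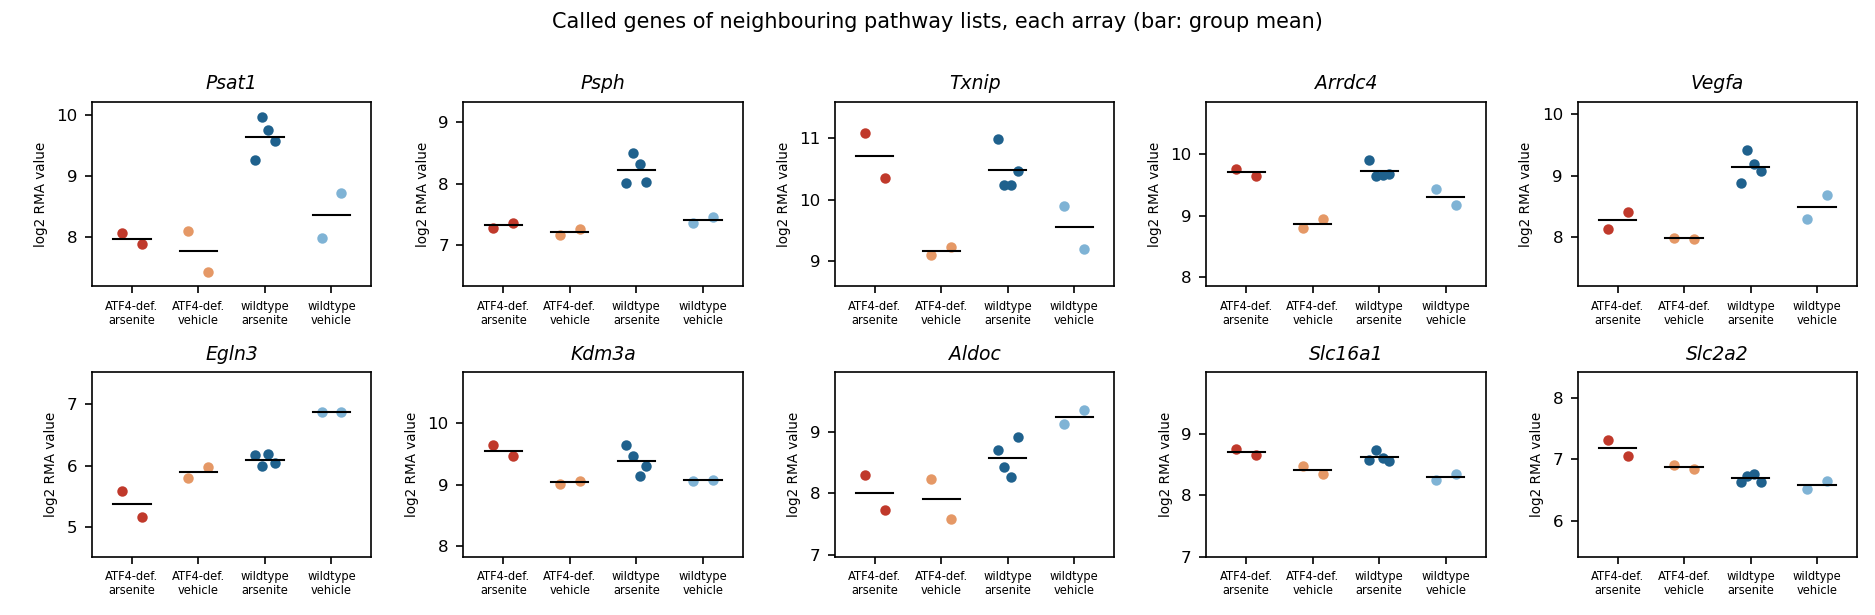
Log2 RMA values on each of the 10 arrays (points) and group means (bars) for the 10 called genes of the neighbouring lists on panels of equal height in log2 units. Psat1, Psph and Vegfa are highest under wildtype arsenite, while Txnip and Arrdc4 are higher under arsenite than vehicle in both genotypes.

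The lists around glycolysis that handle its products gave no call in a comparison of 2 groups or in either average. They were pyruvate import and pyruvate dehydrogenase (13 measured genes), the tricarboxylic acid cycle (15), the pentose phosphate pathway (6), glycogen metabolism (9) and the NADH shuttles (9). Their medians for arsenite ran from -0.07 to 0.02 in ATF4-deficient neurons and from -0.12 to -0.06 in wildtype neurons. For ATF4 deficiency they ran from -0.10 to 0.11 under arsenite and from -0.09 to 0.007 under vehicle. The serine branch, with medians of 0.11 and 0.81 for arsenite in ATF4-deficient and wildtype neurons and -0.89 and -0.20 for ATF4 deficiency under arsenite and vehicle, rests on 3 genes.

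**Figure D5:**
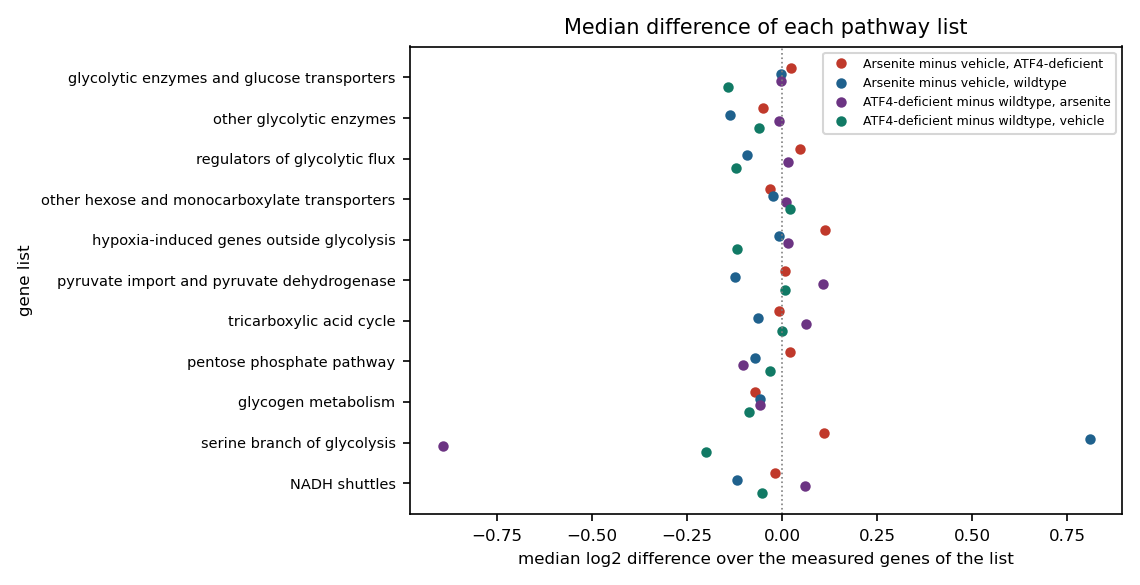
Median log2 difference over the measured genes of each list (rows) in 4 comparisons (colours). The medians of the 9 members lie between -0.14 and 0.02, and the 3 genes of the serine branch lie at 0.81 for arsenite in wildtype neurons and at -0.89 for ATF4 deficiency under arsenite.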

How the data were processed

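Expression was measured on 10 Affymetrix mouse arrays, from 100 ng of Trizol-extracted total RNA per sample, per the labels' protocols. The authors deposited log2 values, normalized with RMA in Partek Genomics Suite 6.6, per the design text of the series and per the submitters' processing notes. RMA equalizes the distributions of the arrays, so a shift shared by most genes would not be seen. Scanner files were not used here, and the sources used here give no batch or scan date. Precision is limited by the number of arrays.

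Of 41345 probe sets, 23521 had 1 gene symbol, 1814 several and 16010 no entry in the platform annotation. The brightest single-symbol probe set stood for a gene, which left 22180 genes, none removed for low signal. All 10 arrays entered 1 limma model (3.58.1, R 4.3.3) that held a mean for each group (6 residual degrees of freedom, moderated by empirical Bayes). P-values were adjusted over all genes by Benjamini-Hochberg, with a threshold of 0.05. The fit was tested on simulated data, where small changes were recovered less often than large ones. Names in the text are the members, Atf4, Hmox1, up to 4 called genes per list and comparison, and the 5 genes most like the members' mean. The members and lists were chosen with earlier results of these data known. Replicate numbers were not used to pair the arrays in the main model. Deviations of same-numbered arrays from their group means correlated at r = -0.06 to 0.40. The highest r joined ATF4-deficient vehicle and arsenite arrays, and what same-numbered arrays share was not tested. Promoter sequences are RefSeq's (GRCm38.p6), and the sources used here do not name the array's build. Alternatives covered dim genes, probe sets, scaling, array weights, the samples in the fit, a replicate block, the variance prior and each array left out.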

Additional observations from a re-analysis of the deposited data

How the results depend on the processing

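The count of members called was 0 of 9 in each of the 7 comparisons under each alternative. The main fit called 0% to 3.07% of all genes, and some alternatives called 0 of all genes in a comparison. At such shares a count of 0 among 9 genes says little about the members. Over 676 alternative values of single members the smallest adjusted p was 0.0962 (Slc2a1, averaged genotype difference of -0.34, with the replicate block). Of those values 33 changed sign, from main estimates of -0.12 to 0.08, and the cause was not tested. With the mean of both Slc2a1 probe sets its arsenite difference in ATF4-deficient neurons was -0.063, against 0.046. With arrays set to equal medians Pfkp's genotype difference under arsenite was 0.007, against -0.003. Leaving out each array in turn gave these ranges across 0. For arsenite in ATF4-deficient neurons, Slc2a1 ran from -0.036 to 0.129, Slc2a3 from -0.25 to 0.18, Hk1 from -0.11 to 0.12, Hk2 from -0.022 to 0.067, Pfkm from -0.20 to 0.35 and Pkm from -0.13 to 0.17. For arsenite in wildtype neurons, Pfkp ran from -0.312 to 0.064, Pgk1 from -0.027 to 0.025 and Pkm from -0.041 to 0.055. For ATF4 deficiency under arsenite, Slc2a3 ran from -0.23 to 0.20, Hk2 from -0.029 to 0.064, Pfkm from -0.19 to 0.36 and Pfkp from -0.15 to 0.15, and under vehicle Pgk1 ran from -0.089 to 0.079 and Pkm from -0.255 to 0.041.

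The number of all genes called moved more, and the cause was not tested. For arsenite in ATF4-deficient neurons it was 256, against 135 with array weights, 0 with only the arrays compared and 50 to 200 with an array left out. For arsenite in wildtype neurons it was 107, against 162 without dim genes, 186 with array weights, 11 with only the arrays compared and 0 to 75 with an array left out. For ATF4 deficiency under arsenite it was 76, against 40 with array weights, 41 with only the arrays compared and 1 to 64 with an array left out. Under vehicle it was 96, against 193 without dim genes, 228 with array weights, 0 with only the arrays compared and 0 to 99 with an array left out. Averaged over genotypes, arsenite gave 682 (242 to 654 with an array left out), and averaged over treatments ATF4 deficiency gave 404 (58 to 377). The interaction gave 0 throughout, with 1330 genes at an unadjusted p under 0.05 in limma.

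Other settings also ended calls of single genes of the neighbouring lists. With only the arrays compared, adjusted p was 0.217 for Arrdc4 and 0.255 for Txnip (arsenite, ATF4-deficient), 0.0823 for Psph (arsenite, wildtype), 0.0791 for Psph, 0.1 for Vegfa and 0.106 for Egln3 (genotype, arsenite), and 0.199 for Egln3 (genotype, vehicle). In the first and last of these comparisons that setting called 0 of all genes. With array weights it was 0.0521 for Txnip (arsenite, ATF4-deficient), and 0.0537 for Psat1, 0.0703 for Egln3 and 0.123 for Vegfa (genotype, arsenite). At equal array medians it was 0.0686 for Vegfa (genotype, arsenite). Egln3 has no value without dim genes, since it was among those removed.

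With the replicate number as a block, the calls were 17 for arsenite in wildtype neurons, 4 for ATF4 deficiency under arsenite and 165 under vehicle. Replicates 3 and 4 exist only under wildtype arsenite, so each was a block of its own and added nothing to the group differences. The wildtype arsenite values of that fit rest on replicates 1 and 2 alone. An effect of the block and the loss of those arrays therefore cannot be told apart in it. Pfkm's genotype difference under arsenite was then -0.002, against 0.08, and Pgk1's arsenite difference in wildtype neurons 0.02, against -0.004. The block ended the genotype calls under arsenite of Psat1 (adjusted p = 0.115), Psph (0.0641), Egln3 (0.128) and Vegfa (0.0798), the arsenite calls in wildtype neurons of Egln3 (0.0957) and Psph (0.0568), and the averaged calls of Slc16a1 (0.0625) and Slc2a2 (0.0516). Same-numbered arrays did not all deviate together, so the block is given as a value and not as a pairing.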
